A study of Homo sapiens with 9 samples.

Results

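The immunoglobulin heavy chain constant genes encode the part of an antibody heavy chain that sets its class. The 9 genes IGHM, IGHD, IGHG1, IGHG2, IGHG3, IGHG4, IGHA1, IGHA2 and IGHE were taken from the count table by gene symbol, 9 of 59050 symbols. The question was how high the RNA of each gene was, relative to library size, in MEC1 cells in 2D culture and in 3D bioprinted scaffolds. MEC1 is an established cell line from chronic lymphocytic leukemia (CLL), a leukemia of mature B cells. The data set held 3 samples grown in 2D culture, 3 bioprinted samples taken from their hydrogel scaffolds after 7 days (3D_7d) and 3 taken after 14 days (3D_14d). All samples came from this 1 cell line, no other treatment was given in the labels, and the labels gave no culture time for 2D. RNA of the scaffolds was extracted with TRIzol, treated with DNase I and extracted a second time with a column kit. RNA of the cells in 2D was extracted only with that kit, whose washes included a DNase solution. Culture and extraction therefore cannot be told apart in the comparisons of 3D with 2D. No source stated that replicates were separate cultures, so that the p-values measure the spread between these samples, which may be technical.

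As background, a B cell that has joined its variable segments transcribes them together with IGHM, the gene of IgM, and IGHD, the gene of IgD, and makes either chain by alternative RNA processing of 1 long transcript. Class switch recombination removes the DNA in between and places IGHG, IGHA or IGHE next to the variable segments, which gives IgG, IgA or IgE. Each of these downstream genes can also be transcribed before any switch, from a promoter of its own, as a germline transcript that encodes no antibody. A count on a constant exon does not tell these transcripts apart. Most CLL cells carry IgM together with IgD at their surface.

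In the deposited models (GRCh38, minus strand of chromosome 14), IGHM lay at chr14:105851705-105856218 and the other genes followed downstream in the order IGHD, IGHG3, IGHG1, IGHA1, IGHG2, IGHG4, IGHE and IGHA2. IGHD started 10.54 kb and IGHA2 267.823 kb after the start of IGHM. The models of 8 genes had the same bases as the transcript with membrane exons in GENCODE 44. The end of the last constant exon that makes the secreted form was outside them, 185 bases in IGHM. The IGHD model held 1125 of the 1678 bases of its annotated transcript and lacked its membrane exons. Constant domain exons common to the secreted and membrane forms were counted for either form, and the counts did not separate these forms. The 2 sequences below are shown because the first was counted and the second was not, and both are printed in lower case, 5′ to 3′, on the strand of the gene. The first is the exon that anchors IgM in the membrane (chr14:105852148-105852263), and the second the coding bases of the secreted tail (chr14:105854343-105854404), from the GRCh38 genome.
IGHM membrane exon: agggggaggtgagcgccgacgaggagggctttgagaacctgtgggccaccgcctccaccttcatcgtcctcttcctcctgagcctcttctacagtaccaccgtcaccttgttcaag
IGHM secreted tail: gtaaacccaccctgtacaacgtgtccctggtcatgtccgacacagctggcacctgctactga

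The 4 IGHG genes are closely similar, and the hinge, the flexible stretch that holds both heavy chains together, is where they differ visibly. Their hinge exons are shown for this reason, with the cysteine codons, which form the bonds between the chains, in capitals. IGHG3 has 4 hinge exons and the other IGHG genes have 1. The exons lie at chr14:105742341-105742385 in IGHG1, chr14:105644068-105644103 in IGHG2 and chr14:105625344-105625379 in IGHG4, and in IGHG3 at chr14:105770669-105770719, chr14:105770481-105770525, chr14:105770293-105770337 and chr14:105770105-105770149.
IGHG1 hinge: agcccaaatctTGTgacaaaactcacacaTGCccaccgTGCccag
IGHG2 hinge: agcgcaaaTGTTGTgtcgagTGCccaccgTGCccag
IGHG3 hinge exon 1: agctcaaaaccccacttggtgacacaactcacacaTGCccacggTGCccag
IGHG3 hinge exon 2: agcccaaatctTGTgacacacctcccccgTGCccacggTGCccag
IGHG3 hinge exon 3: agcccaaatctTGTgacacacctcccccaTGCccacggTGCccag
IGHG3 hinge exon 4: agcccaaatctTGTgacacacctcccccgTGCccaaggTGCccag
IGHG4 hinge: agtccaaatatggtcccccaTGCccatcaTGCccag

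Outside the hinge, the IGHG genes share long stretches. In their first exons, pairs of IGHG genes were identical at 95.25% to 97.29% of aligned bases, and IGHA1 and IGHA2 at 95.44%, while IGHM and IGHD were identical at 67.5%. The longest stretch of the coding exons held unchanged by all 4 IGHG genes had 88 bases, 12 fewer than a read of 100 bases, and lies in the first exon (chr14:105742849-105742936 in IGHG1). It is printed to show how little separates these genes there.
Stretch shared by IGHG1 to IGHG4: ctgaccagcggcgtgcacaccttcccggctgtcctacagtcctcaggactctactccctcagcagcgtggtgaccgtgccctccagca

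The spliced models were cut into all windows of 100 bases, the read length of the study, and each window was looked up in the other heavy chain constant genes and the pseudogenes IGHGP and IGHEP1. No window of IGHM or IGHD was found in another of these genes, exactly or with at most 2 mismatches. Of the IGHG3 windows, 22.32% were found exactly in another gene, and of those of IGHG1, IGHG2 and IGHG4, 30.08%, 18.04% and 12.89%. With at most 2 mismatches these shares were between 59.2% and 69.6%. For IGHA1 and IGHA2 the exact shares were 8.42% and 8.35%, and for IGHE 4.98%, all in IGHEP1. The treatment of reads that align to several places was not stated by the authors. The counts of IGHM and IGHD are therefore not touched by sharing among these genes, whereas the division of counts between IGHG1, IGHG2, IGHG3 and IGHG4, and between IGHA1 and IGHA2, is uncertain. Their sums, which are free of this division but not of reads dropped or counted more than once, are given beside them.

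**Figure D1:**
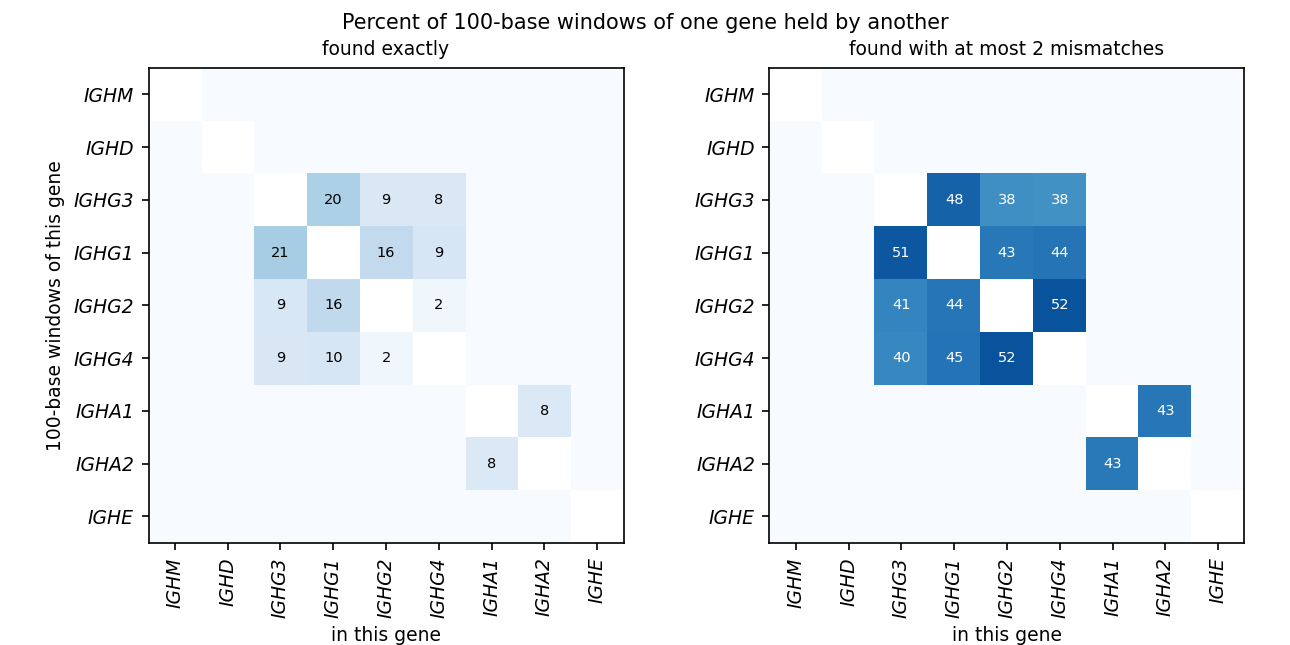
Percent of the 100-base windows of each gene (rows) that were found in another heavy chain constant gene (columns), exactly (left) and with at most 2 mismatches (right), for spliced deposited gene models on GRCh38. Shared windows stay within the IGHG genes and within the pair IGHA1 and IGHA2, and IGHM and IGHD share none.

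Gene counts summed to between 54662799 and 85968686 reads in each library. All 8 B cell markers and all 8 plasma cell markers passed the filter on low counts. The summed level of the B cell markers was between 1243 and 1318 RPKM (reads scaled by library size and by gene length) in 2D culture. At day 7 it was between 1323 and 1659, and at day 14 between 1865 and 2364. For the plasma cell markers the summed level was between 1233 and 1317 RPKM in 2D culture. It was between 1968 and 2122 at day 7 and between 2262 and 3004 at day 14. Of the 8 B cell markers 1 rose and 2 fell at day 7, and 2 rose and 1 fell at day 14. Of the 8 plasma cell markers 4 rose and 2 fell at day 7, and 3 rose and 2 fell at day 14. Over all genes tested, 22.2% rose and 21.2% fell at day 7, and 19.0% and 17.2% at day 14. In both lists the falls were near these shares, and so were the B cell markers that rose. Of the plasma cell markers, JCHAIN was among those that rose and MZB1 and SDC1 were those that fell in both comparisons. Of 7 T cell markers only TRAC passed, with CD3D and CD3G at 3 counts or fewer in every sample. The summed level of this list was between 318 and 365 RPKM in 2D culture, 471 and 499 at day 7 and 540 and 734 at day 14. None of 6 monocyte markers passed, with LYZ and S100A8 at 3 counts or fewer, and 3 of 5 NK cell and 1 of 4 fibroblast markers passed, with summed levels of at most 4.53 and 1.21 RPKM. HBA1, an erythroid marker, rose from 0.0207 CPM (counts scaled by library size) in 2D culture to 1.77 in 3D_7d and 3.23 in 3D_14d. It was the 1 of 4 erythroid markers that passed, only through the 3D samples, so that it had to differ to be tested. The summed level of the 4 erythroid markers was at most 0.122 RPKM in 2D culture and 9.27 RPKM in 3D. The part of any of these markers in the results was not tested. In bulk RNA, fewer cells of a type and less RNA per cell cannot be told apart. 3D_14d replicate 3 stood apart in its immunoglobulin counts. It had 8.66 IGHV4-59 counts per 100 IGHM counts, against 4.26 to 5.16 in the other samples. IGHV4-34 was at 0.556 per 100 IGHM counts against at most 0.0804, and IGHJ4 at 0.212 against at most 0.0235. Values without this sample are given where they change a result.

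IGHM was the highest of the 9 genes per length in all groups. Its mean level was 4216 ± 118 RPKM (SD, n = 3) in 2D culture, 14031 ± 1042 at day 7 and 15624 ± 4542 at day 14. IGHD came next, with 233 ± 14.6, 157 ± 36.1 and 317 ± 57.4 RPKM. Per length, IGHM was therefore 18.1 times as high as IGHD in 2D culture, 89.5 times at day 7 and 49.3 times at day 14. IGHG3 was the highest of the genes downstream of IGHD with 8.38 ± 0.717, 56.9 ± 10.4 and 60.9 ± 4.38 RPKM, followed by IGHA1 with 4.92 ± 0.973, 13.3 ± 8.07 and 23.6 ± 8.58 RPKM. IGHG1, IGHA2 and IGHG2 followed in this order of means in every group, between 0.248 and 1.09 RPKM in 2D and between 2.01 and 7.64 RPKM at day 14. IGHG4 and IGHE were lowest, at 0.39 RPKM or less in all groups.

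Not all neighbours in this order differed beyond their spread. The samples of IGHG1 and IGHA2 overlapped in 2D and at day 14, those of IGHG2 and IGHE in 2D, those of IGHA1 and IGHG1 and of IGHA2 and IGHG2 at day 7, and those of IGHG4 and IGHE at day 14. Along the chromosome the level did not fall steadily from IGHM. Per length, IGHA1 was higher than IGHG1, which precedes it, in the means of all 3 groups. IGHA2, the gene farthest downstream, was higher than IGHG2, IGHG4 and IGHE in these means. This order depends on the deposited lengths, 2594 bases for IGHG2 and 1320 for IGHA2, which include membrane exons. In CPM at day 7, IGHA2 was at 3.32 and IGHG2 at 5.45, and IGHA1 at 17.4 and IGHG1 at 16.9.

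**Figure D2:**
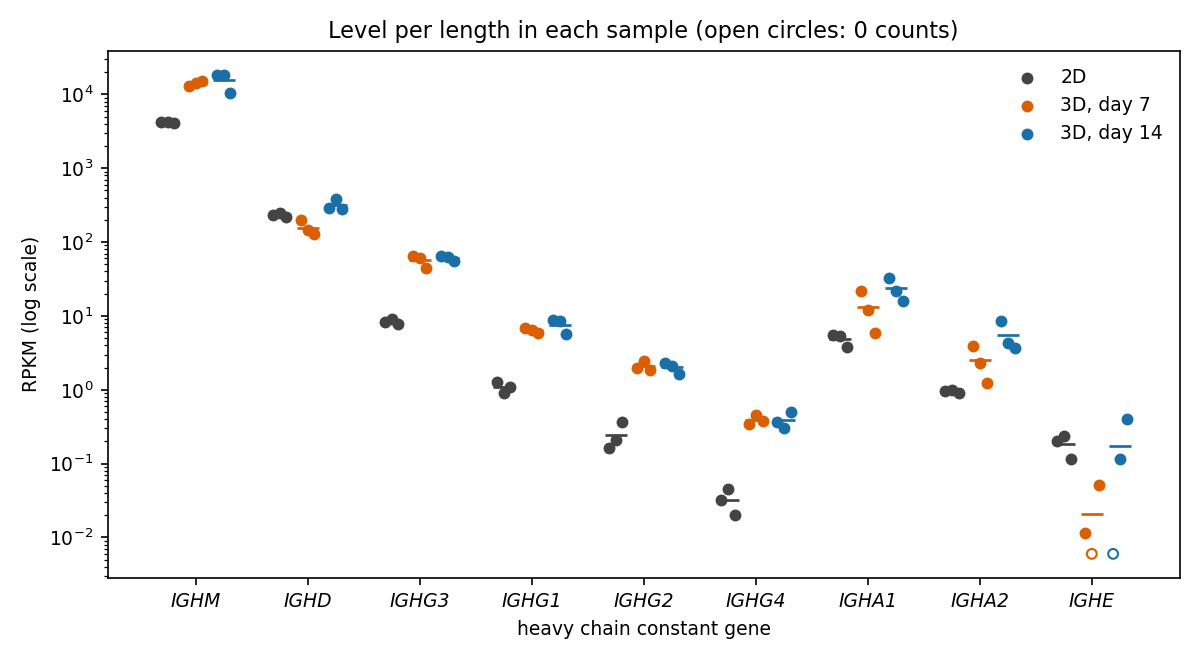
Level of each heavy chain constant gene in RPKM (log scale) in the 9 samples, with each point 1 sample and each line the mean of 3. The lowest IGHM sample was at 4080 RPKM, and the points of all 4 IGHG genes were higher in both 3D groups than in 2D.

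**Figure D3:**
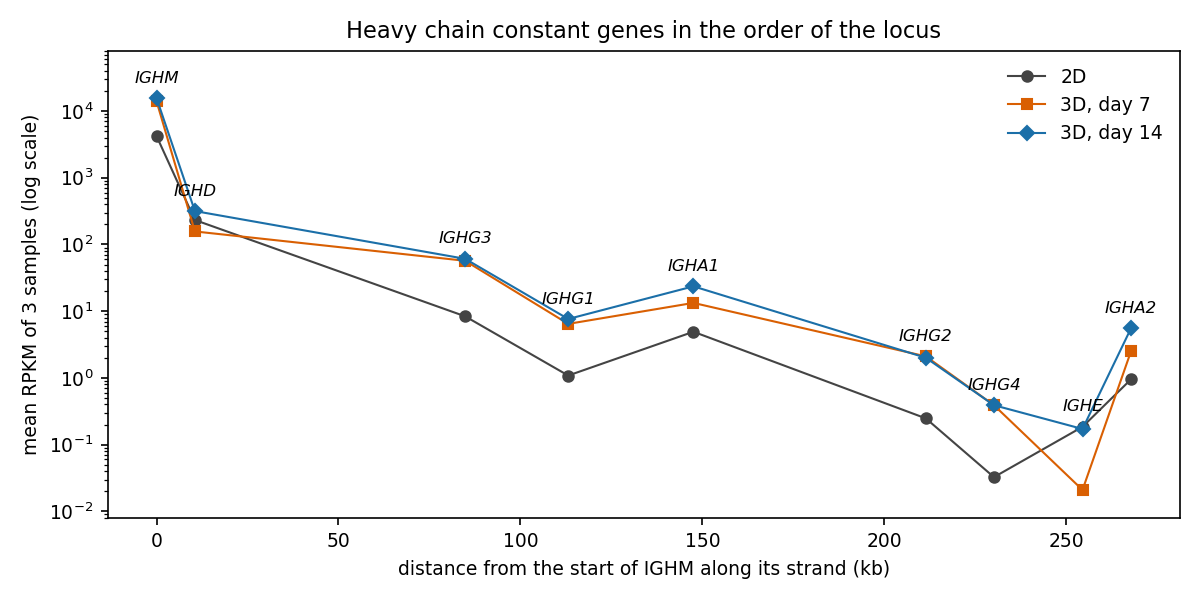
Mean level of 3 samples in RPKM (log scale) of each gene against the distance of its start from the start of IGHM in kb, in the order of the locus. IGHM at 0 kb was highest, and IGHA1 at 147.553 kb and IGHA2 at 267.823 kb stood above the genes next to them upstream.

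Relative to library size, counts of IGHM, the IGHG genes and the IGHA genes were higher at day 7 than in 2D. Those of IGHD were lower. Whether the IGHG and IGHA counts came from switched or germline transcripts was not tested. The rise of the IGHA genes at day 7 was not called without 3D_7d replicate 1. The 7 genes that passed the filter were IGHM, IGHD, IGHG1, IGHG2, IGHG3, IGHA1 and IGHA2, and IGHG2 passed only through the 3D samples, where it was high. With edgeR's quasi-likelihood test and Benjamini-Hochberg adjustment, 6 of the 7 rose, where 22.2% of the 13463 genes tested rose. IGHD fell, 1 of 7, where 21.2% of all genes tested fell, and that share of the members is near the background. The median log2 fold change of the 7 genes was 1.73, against -0.0039 over all genes tested. Without IGHG2, which had to differ to be tested, 5 of 6 rose and the median was 1.59. IGHG4 and IGHE did not pass the filter and are given with their counts.

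The calls against 2D at day 14 differed from those at day 7 only in IGHD. IGHM, IGHG1, IGHG2, IGHG3, IGHA1 and IGHA2 rose, where 19.0% of all genes tested rose and 17.2% fell, and IGHD did not pass the test. Their median, IGHD included, was 2.54, against 0.02 over all genes tested, and without IGHG2 5 of 6 rose with a median of 2.40. Both comparisons used the same 2D samples. Between the time points, IGHD rose from day 7 to day 14 and the other 6 genes did not pass the test, where 14.5% of all genes tested rose and 13.6% fell. A call for 1 of 7 is near that background. With the libraries scaled by total counts alone, the median of all genes moved to -0.16 at day 7 and -0.18 at day 14, and the split of all calls went from 2985 higher and 2853 lower to 2156 and 3580 at day 7, and from 2557 and 2318 to 1603 and 3248 at day 14. The directions of the 7 genes against 2D did not change with that scaling.

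**Figure D4:**
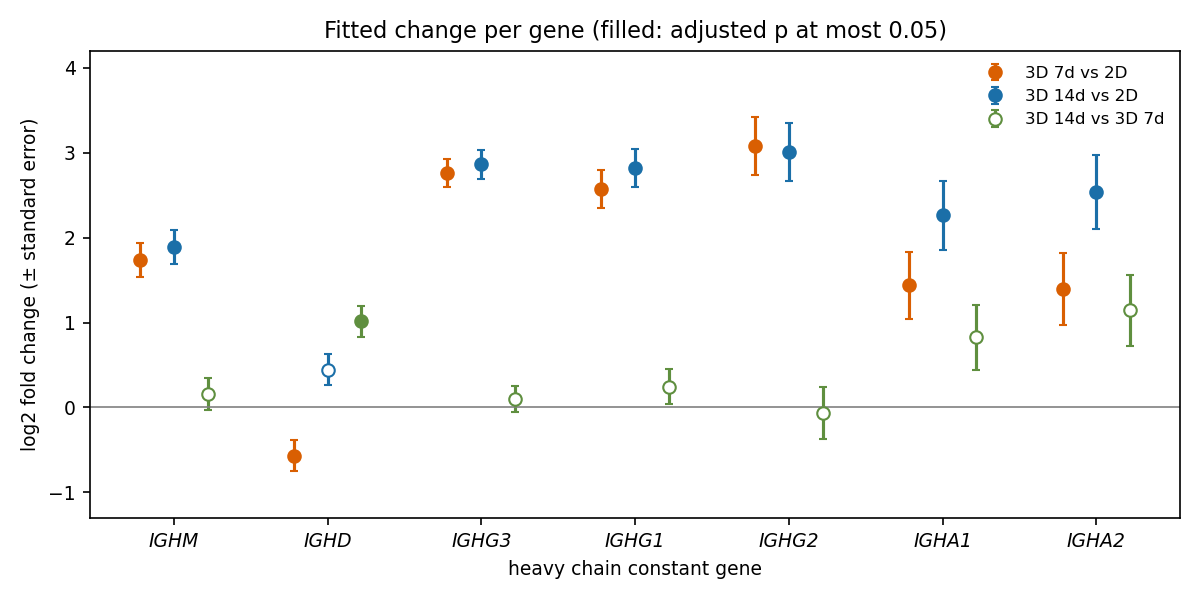
Fitted log2 fold change with its standard error for the 7 genes that passed the filter, in the 3 comparisons (edgeR, 3 samples a group). Filled points passed an adjusted p of 0.05, and only IGHD was below 0 at day 7.

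IGHM, the gene of the mu chain of IgM, had the largest share of the counts. In 2D its level was 7212, 7235 and 6879 CPM (scaled by TMM factors) in replicates 1 to 3. At day 7 it was 21797, 23882 and 25290 CPM, and at day 14 it was 30390, 31128 and 17510 CPM. All 6 samples from 3D were more than 2 times as high as any from 2D, whereas the time points overlapped because of 3D_14d replicate 3, the lowest of the 6. The log2 fold change was 1.73 (SE 0.196, adjusted p = 3.64e-05 from edgeR) at day 7 and 1.89 (SE 0.197, adjusted p = 3.21e-05) at day 14. Between the time points it was 0.16 (SE 0.191, adjusted p = 0.572), and without 3D_14d replicate 3 it was 0.38 (adjusted p = 0.0224).

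The 9 genes together took 0.803% ± 0.00963 (SD, n = 3) of all assigned reads in 2D culture, 2.34% ± 0.124 at day 7 and 2.51% ± 0.592 at day 14. The share was between 0.797% and 0.814% in 2D, between 2.21% and 2.46% at day 7 and between 1.83% and 2.95% at day 14. Groups from 3D did not overlap with 2D (exact two-sided permutation test, p = 0.1, the smallest that 3 against 3 samples allow), and the time points overlapped (p = 0.7, exact). IGHM made up 95.9% ± 0.165 of these counts in 2D culture, 98.4% ± 0.452 at day 7 and 97.7% ± 0.506 at day 14, again without overlap between 3D and 2D (p = 0.1, exact). The composition of the libraries moved with these shares. Ribosomal protein genes took 4.36% ± 0.398 of the reads in 2D culture, 1.72% ± 0.0877 at day 7 and 2.47% ± 0.717 at day 14, with no overlap between the groups, and mitochondrial genes took 2.65% ± 0.302, 1.57% ± 0.112 and 2.24% ± 0.597, with no overlap between 2D and day 7. Their part in the heavy chain shares was not tested. The Wilson 95% interval of the share of 3D_14d replicate 3 was from 1.83% to 1.84%, and such intervals cover counting error only.

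IGHD, the gene of the delta chain of IgD, did not follow IGHM. It was at 267, 286 and 252 CPM in the 2D samples, at 228, 166 and 149 CPM at day 7 and at 336, 442 and 320 CPM at day 14. All day 7 samples were lower and all day 14 samples higher than those of 2D, and no groups overlapped. The log2 fold change against 2D was -0.57 (SE 0.181, adjusted p = 0.0223 from edgeR) at day 7. It was 0.45 at day 14 (SE 0.180, adjusted p = 0.0701), which did not pass the test. From day 7 to day 14, IGHD rose by 1.01 (SE 0.182, adjusted p = 0.00204). The fall at day 7 was close to the threshold. Without 2D replicate 2, 3D_7d replicate 2 or 3D_7d replicate 3 it was no longer called, with adjusted p-values of 0.0515, 0.0624 and 0.0728. The value at day 14 passed the test with DESeq2 (adjusted p = 0.0419) and without 3D_7d replicate 1, 3D_14d replicate 1 or 3D_14d replicate 3 (0.0455, 0.0396 and 0.0492). It was lower with scaling by total counts (0.24, adjusted p = 0.319) and without 3D_14d replicate 2 (0.29, adjusted p = 0.216), and the adjusted p was 0.264 without a filter on low counts (edgeR).

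Relative to IGHM, IGHD was lower in 3D at both time points. There were 3.70, 3.95 and 3.67 IGHD counts per 100 IGHM counts in the 2D samples, 1.05, 0.697 and 0.588 at day 7 and 1.11, 1.42 and 1.82 at day 14. None of the 3 groups overlapped. The ratio of the day 7 mean to the 2D mean was 0.206, that of day 14 to 2D was 0.384, and day 14 was 1.87 times as high as day 7 (p = 0.1 for each, exact two-sided permutation test, the smallest possible). The highest value at day 14 was that of 3D_14d replicate 3, where IGHM was lowest. Without a model of the membrane exons, the IGHD counts came from the 3 constant domain exons, the 2 hinge exons and a short final exon. ZNF318, a nuclear protein known to be needed for the IgD form of the long transcript, was at 18.2 ± 3.80 CPM in 2D culture, 13.9 ± 9.37 at day 7 and 15.6 ± 6.07 at day 14 and did not pass the test in any comparison (adjusted p from 0.453 to 0.787, edgeR). It was named after its values were seen.

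**Figure D5:**
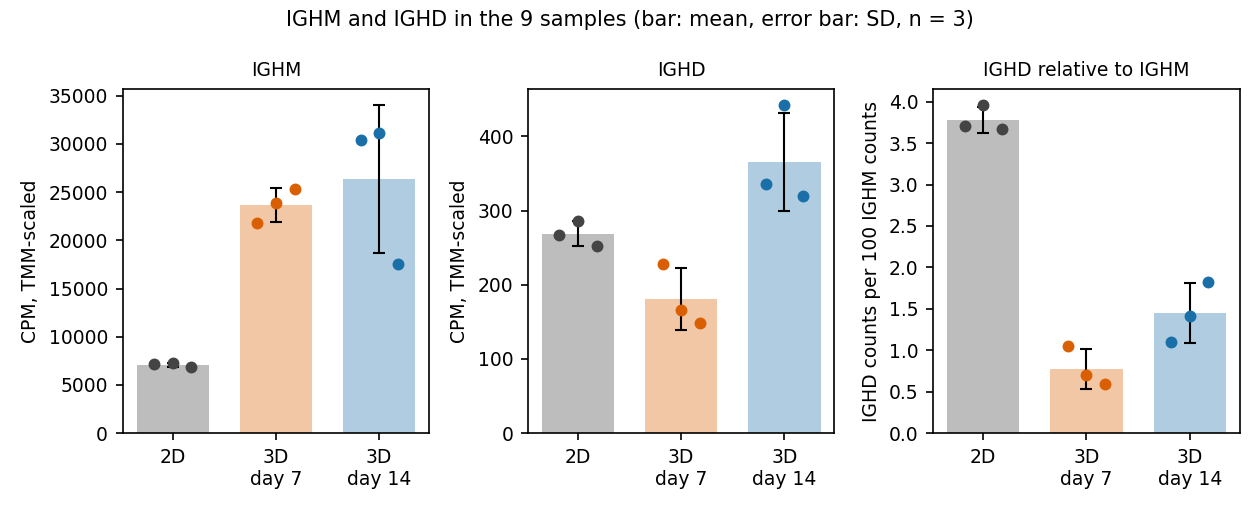
IGHM level, IGHD level (both CPM, TMM-scaled) and IGHD counts per 100 IGHM counts in each sample, with bars for the mean and error bars for the SD of 3 samples. IGHM was higher in both 3D groups, IGHD was lowest at day 7, and the ratio fell from a mean of 3.78 in 2D to 0.777 at day 7 and was 1.45 at day 14.

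IGHG1, IGHG2, IGHG3 and IGHG4 encode the gamma chains of IgG, the main antibody of serum after a switch. IGHG3, the first of them in the locus, was at 22.9, 25.1 and 21.1 CPM in 2D culture, at 178, 168 and 124 CPM at day 7 and at 176, 173 and 154 CPM at day 14. The 3D samples were all far above 2D, and the time points overlapped. The log2 fold change was 2.76 (SE 0.167, adjusted p = 1.15e-06 from edgeR) at day 7 and 2.86 (SE 0.167, adjusted p = 1.45e-06) at day 14. IGHG3 had the smallest adjusted p of the 7 genes in both comparisons with 2D.

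IGHG1 was at 3.32, 2.40 and 2.81 CPM in 2D culture, at 18.1, 17.1 and 15.5 CPM at day 7 and at 22.8, 22.3 and 14.9 CPM at day 14. Its log2 fold change was 2.57 (SE 0.222, adjusted p = 7.23e-06, edgeR) at day 7 and 2.82 (SE 0.224, adjusted p = 7.68e-06) at day 14, with no overlap between 3D and 2D. IGHG2 had 26, 51 and 72 counts in 2D culture, 294, 352 and 255 counts at day 7 and 321, 284 and 237 counts at day 14. The log2 fold change of IGHG2 was 3.08 (SE 0.340, adjusted p = 3.24e-05, edgeR) at day 7 and 3.01 (SE 0.340, adjusted p = 5.33e-05) at day 14. From day 7 to day 14 neither gene passed the test, with values of 0.24 for IGHG1 and -0.07 for IGHG2.

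IGHG4 had 5, 11 and 4 counts in the 2D samples, 52, 64 and 51 counts at day 7 and 51, 42 and 72 counts at day 14. It was thus low in every sample and higher in all 3D samples than in any from 2D. In the fit without a filter on low counts its log2 fold change was 3.54 (SE 0.723, adjusted p = 2.83e-05, edgeR) at day 7 and 3.47 (SE 0.722, adjusted p = 5.31e-05) at day 14. With edgeR's own, looser filter, which IGHG4 passed through the 3D samples, the adjusted p-values were 0.000382 and 0.000540. Adjusted p-values of the fit without a filter are not comparable with the others. For IGHG3 at day 7 that fit gave 1.29e-37, against 1.15e-06 with the filter used here (edgeR).

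Within IGHG, the share of IGHG3 differed little between the groups. It had 86.5% ± 2.31 (SD, n = 3) of the IGHG counts in 2D culture, 86.9% ± 1.39 at day 7 and 86.6% ± 1.48 at day 14, with overlap between all groups (p from 0.9 to 1.0, exact permutation test). The sum of the 4 genes does not depend on how shared reads were divided among them. Reads that were dropped, counted more than once or shared with IGHGP would still change it. This sum was 26.6 ± 1.6 CPM in 2D culture, 180 ± 30.3 at day 7 and 194 ± 17.1 at day 14. The differences of its mean log2 CPM from 2D were 2.74 and 2.86. Relative to IGHM, IGHG was higher in 3D. There were 0.374 ± 0.0135 IGHG counts per 100 IGHM counts in 2D culture, 0.769 ± 0.179 at day 7 and 0.773 ± 0.193 at day 14, and neither 3D group overlapped with 2D (p = 0.1, exact, the smallest possible). The pseudogene IGHGP, which shares windows with the IGHG genes, had 14, 21 and 30 counts in 2D culture, 36, 47 and 48 at day 7 and 92, 61 and 53 at day 14.

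IGHA1 and IGHA2 encode the alpha chains of IgA, the antibody of mucosal surfaces. IGHA1 was at 7.26, 7.09 and 4.97 CPM in 2D culture, at 28.7, 15.9 and 7.70 CPM at day 7 and at 43.0, 28.8 and 20.8 CPM at day 14. IGHA2 was at 1.29, 1.31 and 1.18 CPM in 2D culture, at 5.24, 3.05 and 1.65 CPM at day 7 and at 11.3, 5.73 and 4.91 CPM at day 14. Every 3D sample was higher than every 2D sample for both genes, but the day 7 samples differed widely among themselves, with the lowest close to 2D, and the time points overlapped. The coefficient of variation of IGHA1 at day 7 was 60.6%, against 7.43% for IGHM and 18.3% for IGHG3 in the same samples.

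The log2 fold change of IGHA1 was 1.44 (SE 0.394, adjusted p = 0.0107 from edgeR) at day 7 and 2.26 (SE 0.403, adjusted p = 0.00104) at day 14. For IGHA2 it was 1.40 (SE 0.423, adjusted p = 0.0176) and 2.54 (SE 0.433, adjusted p = 0.000800). The rise at day 7 rested on single samples. Without 3D_7d replicate 1 the values were 0.85 (adjusted p = 0.0751) for IGHA1 and 0.88 (adjusted p = 0.111) for IGHA2. Without 2D replicate 3 neither gene was called (0.0541 and 0.0658), and IGHA2 was not called without 2D replicate 1 or 2D replicate 2 either (0.0556 and 0.0545). Between the time points the values were 0.82 (adjusted p = 0.126) for IGHA1 and 1.14 (adjusted p = 0.0554) for IGHA2. They also rested on single samples. When 3D_7d replicate 1 was left out, IGHA1 was at 1.39 (adjusted p = 0.0205, edgeR). It was at 0.50 when 3D_7d replicate 3 was left out and at 0.53 when 3D_14d replicate 1 was. IGHA2 passed the test without 3D_7d replicate 1 (1.65, adjusted p = 0.0194) and without 3D_14d replicate 3 (1.37, adjusted p = 0.0444), and was at 0.70 (adjusted p = 0.210) without 3D_14d replicate 1. IGHA2 had 16.6%, 16.4% and 18.8% of the IGHA counts in the 3 groups, with overlap between them. The sum of both genes was 7.70 ± 1.34 CPM in 2D culture, 20.7 ± 12.4 at day 7 and 38.2 ± 14.7 at day 14. Per 100 IGHM counts there were 0.108 ± 0.0161, 0.0907 ± 0.0601 and 0.146 ± 0.0341 IGHA counts, with overlap between all groups (p from 0.3 to 0.7, exact permutation test).

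IGHE, the gene of the epsilon chain of IgE, was close to the detection limit. It had 18, 33 and 13 counts in 2D culture, 1, 0 and 4 counts at day 7 and 0, 9 and 33 counts at day 14. The day 7 samples were all lower than those of 2D, and the day 14 samples spread over both. The high end at day 14 was 3D_14d replicate 3 alone, at 0.594 CPM. The other day 14 samples were at 0 and 0.171 CPM, against 0.171 to 0.356 CPM in 2D. A count of 0 allows a level of up to 0.0530 CPM of total counts in 3D_7d replicate 2 and 0.049 in 3D_14d replicate 1. In the fit without a filter IGHE did not pass the test in any comparison (adjusted p = 0.0586 at day 7, 0.983 at day 14 and 0.120 between the time points, edgeR). The pseudogene IGHEP1, which holds the shared windows, had at most 1 count in any sample. The pseudogene IGHEP2 on chromosome 9 was not part of the window comparison. It had 5, 16 and 68 counts in 2D culture, 17, 15 and 7 at day 7 and 0, 0 and 10 at day 14.

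The partners of the heavy chain are the light chains, the J chain that joins IgM and IgA into polymers, and CD79A and CD79B, which carry the signal of the surface receptor. Of 10 listed partners 5 were tested. At day 7, 3 rose and 0 fell, where 22.2% of all genes tested rose. At day 14 all 5 rose, where 19.0% of all genes did, and 4 rose from day 7 to day 14, where 14.5% did. The medians against 2D were 1.91 and 2.39. IGLL5 passed the filter only through the 3D samples, and without it 2 of 4 rose at day 7, 4 of 4 at day 14 and 3 of 4 between the time points, with medians of 1.11 and 1.88 against 2D. IGKC, the kappa light chain constant gene, was at 2208 ± 234 CPM in 2D culture, 13965 ± 1710 at day 7 and 19831 ± 6456 at day 14, with log2 fold changes of 2.66 and 3.17 (adjusted p = 5.55e-06 and 3.37e-06, edgeR). There were 31.03 ± 2.58 IGKC counts per 100 IGHM counts in 2D culture, 58.9 ± 3.27 at day 7 and 77.9 ± 23.1 at day 14. Both 3D groups were above 2D without overlap (p = 0.1, exact, the smallest possible).

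JCHAIN, the J chain, rose from 507 ± 18.6 CPM to 1902 ± 91.6 at day 7 and 2649 ± 599 at day 14, with log2 fold changes of 1.91 and 2.39. CD79A was at 509 ± 55.0, 630 ± 72.6 and 1312 ± 268 CPM, and CD79B at 163 ± 19.0, 143 ± 29.7 and 356 ± 104 CPM. Neither passed the test at day 7, when IGHM was already high (adjusted p = 0.153 and 0.488, edgeR, and 0.0358 for CD79A when only the 6 samples compared were fitted), and both rose at day 14, by 1.37 and 1.13. IGLL5, which overlaps lambda light chain segments and whose reads may belong to them, rose from 0.0763 to 1.45 and 6.43 CPM. The other 5 listed partners, the lambda constant genes and IGLL1, did not pass the filter.

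Class switch recombination cuts the DNA of switch regions and joins the breaks. Of 40 listed genes 39 were found by symbol and all 39 were tested. At day 7, 15 rose and 7 fell (median 0.33 on the log2 scale), at day 14, 4 rose and 15 fell (median -0.28), and between the time points 1 rose and 16 fell. As shares, 38.5% rose and 17.9% fell at day 7, against 22.2% and 21.2% of all genes tested, and 10.3% rose and 38.5% fell at day 14, against 19.0% and 17.2%. The share that fell at day 7 was near the background. Between the time points 2.56% rose and 41% fell, against 14.5% and 13.6% of all genes tested. With scaling by total counts alone, 10 rose and 8 fell at day 7 and 3 rose and 17 fell at day 14. XRCC5, a subunit of the Ku complex that binds DNA ends, was at 334, 1019 and 467 CPM in the 3 groups and rose in both comparisons with 2D, by 1.61 and 0.48. At day 14 XRCC5 was not called without any one of the 2D samples or without 3D_14d replicate 2 (adjusted p from 0.0632 to 0.126, edgeR), nor with scaling by total counts (0.153). SUPT6H, a histone chaperone of transcription elongation, rose by 1.20 and 0.97. EXO1, an exonuclease, did not pass the test at day 7 (0.43, adjusted p = 0.110, but 0.0242 without 3D_14d replicate 1 and 0.0456 without 3D_14d replicate 2, edgeR) and fell by 1.68 on the log2 scale at day 14, from 43.3 to 13.5 CPM.

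Of 28 listed regulators of heavy chain transcription 26 were tested. At day 7, 7 rose and 4 fell (median 0.08), and at day 14, 9 rose and 2 fell (median 0.31). The day 7 shares of 26.9% and 15.4% were near the 22.2% and 21.2% of all genes tested, and those of day 14 were 34.6% and 7.69%, against 19.0% and 17.2%. With scaling by total counts alone the counts at day 14 were 3 and 3, and the median at day 7 was -0.08. SPIB, an ETS family factor of B cells, rose from 26.8 CPM to 77.6 and 75.1 (log2 fold changes 1.53 and 1.49). IKZF1, the Ikaros factor, rose by 1.03 at day 7 and had a value of 0.37 at day 14 (adjusted p = 0.0521, edgeR), which passed with DESeq2 and without 3D_14d replicate 1 or 3D_14d replicate 3 (0.0275, 0.0463 and 0.0139). POU2F2, which binds the octamer element of immunoglobulin promoters, and SPI1, also called PU.1, did not pass the test at day 7 and rose by 0.84 and 0.89 at day 14. ID2, an inhibitor of E proteins, fell by 0.90 at day 7 and 0.40 at day 14 on the log2 scale. Its call at day 14 was lost without any one of the 2D samples, 3D_7d replicate 2, 3D_14d replicate 2 or 3D_14d replicate 3 (adjusted p from 0.0512 to 0.0832, edgeR).

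Heavy chain RNA is cut at an early site for the secreted form or at a later site for the membrane form. All 19 listed factors of this processing were tested. At day 7, 5 rose and 1 fell (median 0.24). At day 14, 0 rose and 3 fell (median -0.15), or 5 fell with scaling by total counts, and 10 fell from day 7 to day 14. The 26.3% that rose at day 7 and the 15.8% that fell at day 14 were near the background of 22.2% and 17.2%. The 5.26% that fell at day 7 and the 0% that rose at day 14 were below the background of 21.2% and 19.0%. Between the time points 52.6% fell, against 13.6% of all genes tested. CPSF3, the endonuclease of 3′ end cleavage, CSTF2, a cleavage stimulation subunit, and ELL2, an elongation factor linked to the secreted form, rose at day 7 by 1.03, 0.99 and 1.12. ELL2 was at 79.5 ± 3.18 CPM in 2D culture, 173 ± 2.48 at day 7 and 90.4 ± 27.4 at day 14. At day 14 these 3 genes had values of 0.13, 0.20 and 0.19 and did not pass the test, except for ELL2 without 3D_14d replicate 1 (0.41, adjusted p = 0.0122, edgeR). HNRNPLL, a splicing regulator of lymphocytes, fell by 1.68 at day 14, SNRPA, a protein of the U1 particle, by 0.69 and AFF1, of the elongation complex, by 0.64. The call of AFF1 was lost without 2D replicate 3 or 3D_14d replicate 2 (adjusted p = 0.0612 and 0.0540, edgeR).

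All 18 listed factors that fold heavy chains in the endoplasmic reticulum were tested. At day 7, 8 rose and 4 fell, and at day 14, 4 rose and 3 fell, with medians of 0.28 and -0.18. At day 7, 44.4% rose, against 22.2% of all genes tested. The 22.2% of the list that fell at day 7, and the 22.2% that rose and 16.7% that fell at day 14, were near the background of 21.2%, 19.0% and 17.2%. With scaling by total counts alone, 7 rose and 6 fell at day 7 and 3 rose and 7 fell at day 14. MZB1, a B cell protein that aids the folding and assembly of IgM, fell from 309 ± 18.9 CPM to 82.6 ± 6.16 at day 7 and 148 ± 39.5 at day 14 (log2 fold changes -1.90 and -1.06, adjusted p = 1.19e-05 and 0.000669, edgeR). CALR, a lectin chaperone, rose by 1.10 and 0.59, and DNAJB11, a cofactor of the chaperone that binds heavy chains, by 1.05 and 0.70. ERO1A, an oxidase for disulfide bonds, fell by 1.11 and 0.71 on the log2 scale.

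Of 16 listed receptors of heavy chain constant regions 10 were tested. At day 7, 2 rose and 2 fell, at day 14, 8 rose and 0 fell, and 7 rose from day 7 to day 14. The day 7 counts were near the 22.2% and 21.2% of all genes tested, whereas 19.0% of all genes rose at day 14 and 14.5% between the time points. The medians against 2D were 0.04 and 0.73. FCRL4 passed the filter only through the 3D samples, and without it 1 of 9 rose at day 7 and 7 of 9 at day 14, with medians of 0.0099 and 0.67. With scaling by total counts alone, 2 rose and 4 fell at day 7, where the median was -0.11, and 6 rose at day 14. FCGRT, the heavy subunit of the neonatal receptor of IgG, fell from 17.5 ± 0.807 CPM to 4.70 ± 0.704 at day 7 and was at 27.0 ± 5.99 at day 14, with log2 fold changes of -1.89 and 0.63. The rise at day 14 was not called without any one of the 2D samples or 3D_14d replicate 2, nor with scaling by total counts (adjusted p from 0.0680 to 0.108, edgeR). FCGR2B, the inhibitory receptor of IgG on B cells, was at 91.5, 114 and 213 CPM, and rose at day 14 by 1.22. PIGR, which carries polymeric IgA and IgM across epithelia, was at 45.3, 45.7 and 96.6 CPM and rose at day 14 by 1.09. TRIM21, a receptor of antibodies in the cytosol, rose by 0.75 and 0.79, and FCRL4, a receptor of IgA on memory B cells, by 2.71 and 3.07 from 0.794 CPM in 2D.

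Genes with a pattern most like each heavy chain constant gene were ranked by the root mean square difference of centred log2 CPM over the 9 samples, a description that carries no test. For IGHM these were CIDECP1 (0.152), MVP (0.166) and ANXA2 (0.173), where the median of all genes was 0.956. For IGHD they were TMEM140 (0.107), MXD1 (0.136) and AC004551.1 (0.137), all lowest at day 7 and highest at day 14 in their means. IGHG3 and IGHG1 had each other (0.216) and CPNE5 among their first 3, and IGHG2 had MIR22HG, SYT17 and IGHG3. IGHA1 and IGHA2 were nearest to each other (0.187) and next to IFIT1, an interferon-induced gene, which was at 24.2, 56.5 and 116 CPM in the 3 groups. Since shared reads may tie IGHG3 to IGHG1 and IGHA1 to IGHA2, their likeness cannot be taken as independent evidence.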

How the data were processed

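RNA of 9 MEC1 samples was sequenced from SMART-Seq libraries as single reads of 100 bases. The authors trimmed reads with Trimmomatic 0.39, aligned them to GRCh38 (GENCODE release 31) with STAR 2.5.3a and assigned them to genes with featureCounts 1.6.4, per the submitters' notes and the study's methods. The deposited values are raw counts per gene symbol, without normalization, beside the length of each gene. Strand and the treatment of reads with several alignments are not given in the sources used here. Samples were grouped by the labels.

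From the counts, a gene entered the tests if 3 or more samples had a CPM over 1, which left 13463 genes of 51726 that had any count. In R 4.3.3, edgeR 4.0.16 was used for TMM factors, a single negative binomial model of the 3 group means, and the quasi-likelihood test, with Benjamini-Hochberg adjustment over all genes of a comparison and a threshold of 0.05. RPKM were computed from TMM-scaled sizes and deposited lengths, and log2 CPM used a prior count of 2. Single values were tested with exact permutation tests. Replicate numbers did not pair the samples. The total per sample was at least 54662799 counts, replicates differed by more than counting error (chi-square per gene of 22.5 or more), and no samples agreed within counting noise. DESeq2 1.42.0, other scalings, filters, sample sets, a replicate block and leaving out samples were alternatives. Both tools were tested on 1 set of simulated counts with 200 changed genes. There DESeq2 placed 20.93% of its calls on unchanged genes and edgeR 7.186%. At 2-fold changes DESeq2 recovered 75.58% and edgeR 61.63%. Far fewer genes changed in the simulation than were called in the data, so that these shares do not carry over to the calls here.

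Sequences were read from the GRCh38 genome at the coordinates of the deposited models, and exons were compared with GENCODE 44. Named genes were the 9 members, CD79A, CD79B, IGKC and JCHAIN, in each list the 3 genes with the smallest p in either comparison with 2D, and the 3 most similar genes for each tested member, and some genes that the rule names are not reported here. The members and the lists were chosen with earlier results of these data known.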

Additional observations from a re-analysis of the deposited data

Results flagged for a closer look

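The change of IGHD against 2D differed between the time points. Its log2 fold change was -0.57 at day 7 and 0.45 at day 14, and the difference was 1.01 (SE 0.182, adjusted p = 0.00204 from edgeR). IGHD was higher at day 14 than at day 7 in every pair of samples, and it passed the test in all 17 alternatives, with values from 0.86 to 1.21. No other heavy chain constant gene had a difference past the threshold with edgeR and TMM scaling. No group had 4 or more samples, so that single samples were not tested for their distance from the rest of their group.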

How the results depend on the processing

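Of the results that answer a comparison, 108 values under alternatives were rated as kept and 9 were not. Counts of genes called and orders of pairs had to stay within 1.5 times. Differences of shares only had to keep their direction. Log2 fold changes of summed genes had to keep their direction and move by less than the SD of the second group. The p-values did not enter this rating. The number of heavy chain constant genes called from day 7 to day 14, 1 by edgeR with TMM, was 2 with DESeq2, 2 with DESeq2's size factors in edgeR, 2 with TMM factors that left out mitochondrial, ribosomal protein and immunoglobulin genes, and 3 without a filter on low counts, where IGHA2 or both IGHA genes were added to IGHD. Without single samples it was between 1 and 3, with 3 without 3D_7d replicate 1 or 3D_14d replicate 3. With the replicate number as a block it was 3. The numbers did not pair the samples, since correlations of same-numbered samples' deviations were between -0.1 and 0.185. Leaving out IGHG2, an alternative chosen after seeing the data, gave 6, 5 and 1 calls in the 3 comparisons. The block changed no count against 2D, 7 at day 7 and 6 at day 14. The difference in the share of all heavy chain constant genes between the time points, 0.170 percentage points, was -0.101 with counts divided by exon length and between -0.0538 and 0.505 without single samples. The change of IGHG3 between the time points was between -0.021 (without 3D_7d replicate 3) and 0.20 without single samples, and that of IGHG2 between -0.16 and 0.080, above 0 without 3D_7d replicate 2 or 3D_14d replicate 3. The causes were not tested. Counts of 72 or fewer limit IGHG4 and IGHE and those of IGHG2 in 2D.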
